A study of Mus musculus with 12 samples.

Results

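The 10 genes described here encode mouse MHC class I heavy chains (H2-K1, H2-D1, H2-Q4, H2-Q6, H2-Q7, H2-T22, H2-T23, H2-T24 and H2-M3) and their shared light chain, beta-2 microglobulin (B2m). They were taken by name from a table of 38887 genes, of which 15494 passed a filter on low counts, and all 10 members passed it. The members, and the gene lists set beside them below, were chosen with earlier results of these data known. Counts of genes called are therefore descriptions beside the share of all genes, with no test of that excess. RNA came from Ly6G+ spleen cells, a surface-marker definition of neutrophils that the submitters call PMN-MDSCs (polymorphonuclear myeloid-derived suppressor cells), of mice aged 2 days, 7 days, 14 days and 6 weeks. Each age had 3 libraries, 12 in all, and polyadenylated RNA was sequenced. The labels give no strain, genotype, sex or number of mice per library, and no treatment or sorting method. Whether replicates are separate animals is not stated, so the spread behind each p-value may be technical.

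MHC class I molecules display peptides made inside the cell at its surface. A heavy chain folds around a peptide together with B2m, and the complex is loaded in the endoplasmic reticulum by the TAP transporter, tapasin and chaperones with peptides cut by the proteasome. The classical chains H2-K and H2-D are read by CD8+ T cells and by inhibitory receptors of NK cells, while non-classical chains have more restricted partners. Transcription of these genes is known to respond to interferons, NF-kappa B and the transactivator Nlrc5.

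The 9 heavy chain genes lie on chromosome 17 and B2m lies apart from them on chromosome 2 (positions from GENCODE M21 on GRCm38, the assembly called mm10). H2-K1 occupies chr17:33996017-34000347 on the minus strand, centromeric to H2-D1 at chr17:35262730-35267499. H2-Q4 (chr17:35379617-35385290), H2-Q6 (chr17:35424850-35430055) and H2-Q7 (chr17:35439155-35443773) follow on the plus strand. H2-T24 (chr17:36005695-36020560), H2-T23 (chr17:36029773-36032855) and H2-T22 (chr17:36037128-36042747) are neighbours on the minus strand, and H2-M3 (chr17:37270220-37274484) is the most telomeric of the 9. B2m occupies chr2:122147686-122153083.

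Promoters are shown because they show which regulatory letters the members share. RefSeq gives a promoter on GRCm38.p6, from 250 bases before to 50 after a gene start, for 9 of the 10 members (10 promoters, with 2 for H2-K1). H2-T24 is not among them. Letters of the interferon-stimulated response element, GAANNGAAA on either strand, occurred in 6 members, against 7.52% of all 32851 promoters of that length. The 6 windows of 45 bases around that match, given 5′ to 3′ on the gene's own strand, carry it in their second block of capitals, where it reads on the reverse strand. The first block of capitals, where present, is a match to the kappa B palindrome GGGANTCCC.
H2-K1, chr17:34000421-34000465, minus strand: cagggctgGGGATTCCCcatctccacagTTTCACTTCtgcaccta
H2-D1, chr17:35262916-35262960, plus strand: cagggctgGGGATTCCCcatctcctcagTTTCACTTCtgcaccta
H2-Q4, chr17:35379436-35379480, plus strand: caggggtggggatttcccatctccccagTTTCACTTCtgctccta
H2-Q6, chr17:35424670-35424714, plus strand: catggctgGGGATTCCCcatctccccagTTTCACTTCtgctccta
H2-Q7, chr17:35439014-35439058, plus strand: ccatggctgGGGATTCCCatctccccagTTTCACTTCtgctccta
H2-M3, chr17:37270105-37270149, plus strand: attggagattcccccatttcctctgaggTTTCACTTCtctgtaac

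The response element letters lay 90 to 153 bases before RefSeq's gene start, and those 9 letters were identical in all 6 windows. The kappa B letters occurred in 4 members (H2-K1, H2-D1, H2-Q6 and H2-Q7), against 0.767% of all promoters. Only that palindrome was searched, so other forms of the site, such as a near match at the same place in the H2-Q4 window, were not counted. The short core TGACG of the X2 box, part of the element through which Nlrc5 is recruited, occurred in 7 members and in 20.8% of all promoters. The Y box letters CCAAT occurred in all 9 members with a promoter and in 37.4% of all promoters. The windows of B2m, H2-T22 and H2-T23 held no match to the response element letters. Matches are descriptions of letters and not of bound factors, and no match overlapped another in these promoters.

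Libraries held 34495767 to 38795913 counts, and 18912 to 20255 genes had a count. Levels are given as CPM (counts per 1000000, with library totals scaled by trimmed mean of M-values factors) or, when genes are set against each other, as CPM per kb of annotated exon. The 8 neutrophil markers were all detected and summed to 41993.3 to 67934.7 CPM per library, and Ly6g itself averaged 93.7, 103, 168 and 178 CPM at 2 days, 7 days, 14 days and 6 weeks. The 2-day replicate 2 and the 14-day replicate 1 stood somewhat apart from their partners (Spearman correlations across genes of 0.9705 and 0.9803, against 0.9916 between the other 2-day libraries, and of 0.9856 and 0.9863 against 0.9944 at 14 days). All 7-day libraries held 10674.2 to 13372.6 CPM of the heat-shock gene Hspa1a. Its means were 14.4, 15.4 and 88.3 CPM at 2 days, 14 days and 6 weeks. Whatever set the 7-day libraries apart in Hspa1a cannot be told apart from age in any comparison with 7 days. The Y-linked Ddx3y averaged 34.3 and 35.9 CPM at 2 and 7 days and had 0 counts in every 14-day and 6-week library. Xist, an RNA of female cells, measured 158 to 207 CPM at 2 days, 187 to 441 at 7 days, 322 to 508 at 14 days and 229 to 303 at 6 weeks. The 2-day and 7-day libraries thus held transcripts of both sexes. Sex composition therefore cannot be told apart from age in any comparison of 2 or 7 days with 14 days or 6 weeks.

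All 10 members were expressed at every age, and all were highest on average at 6 weeks. In the joint test for any difference among the 4 ages, all 10 members passed, beside 69.2% of all genes tested (edgeR's quasi-likelihood test with Benjamini-Hochberg adjustment over 15494 genes, threshold 0.05). Their adjusted joint p-values ran from 6.44e-07 for H2-T22 to 0.0295 for H2-T24. Between 6 weeks and 2 days, 9 of 10 members were higher at 6 weeks, where 19.7% of all genes were. None was lower, against 20.7% of all genes, and the count was 0 also at an unadjusted p under 0.05, by DESeq2 and by limma-voom. The median log2 difference over the members was 1.36, and over all genes it was -0.04. In bulk RNA, a change in the share of cells that carry a transcript and a change in the amount per cell cannot be told apart.

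**Figure D1:**
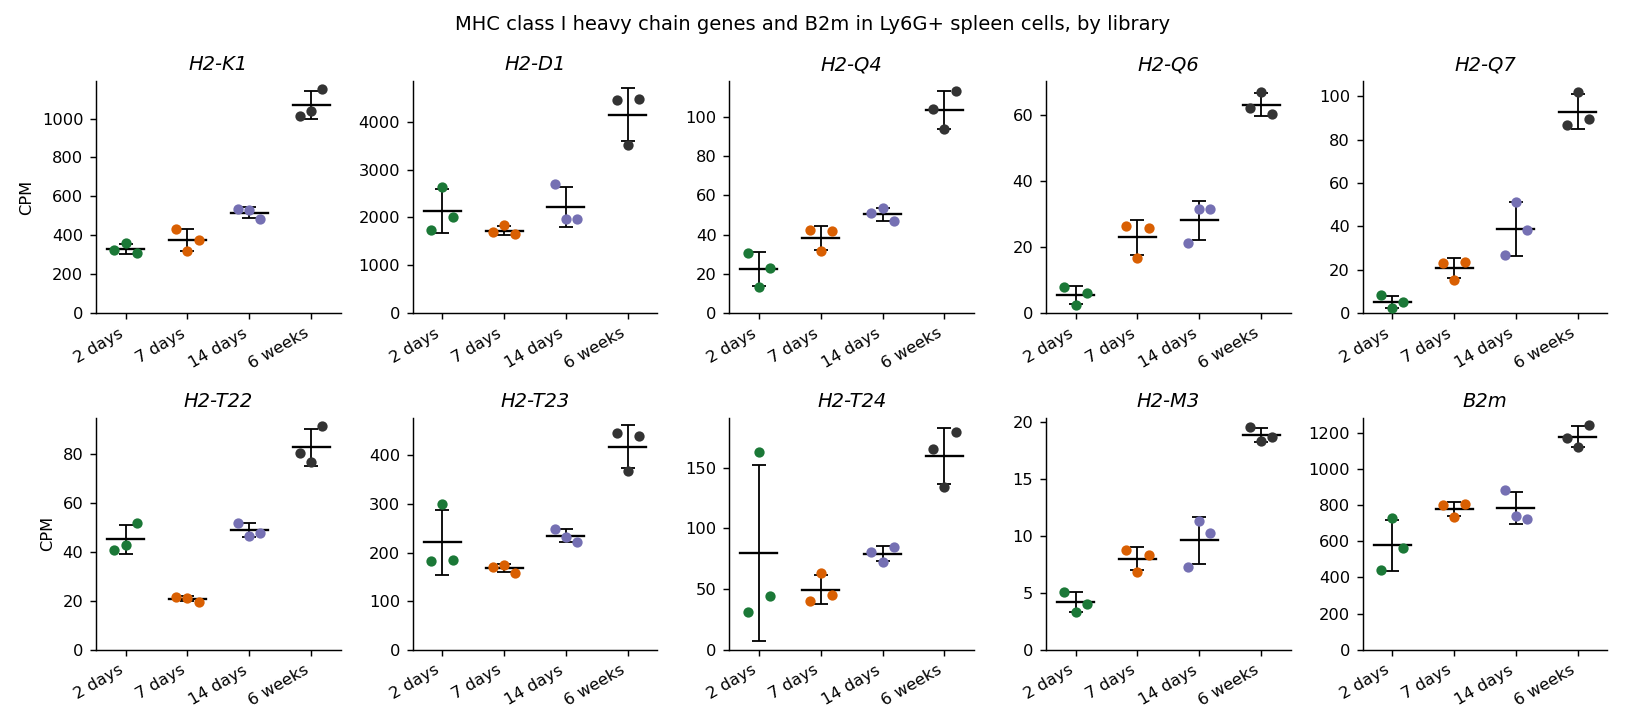
CPM of each of the 10 genes (vertical axes from 0, one scale per gene) in each of 12 libraries by age; points are libraries, long lines the means and bars the SD (n = 3). The 6-week libraries are above all others for every gene except H2-T24, where one 2-day library reaches 163 CPM. Of all genes tested, 23.3%, 35.6% and 21.9% had every 6-week library above those of 2 days, 7 days and 14 days. Among the younger ages, 27.4% of all genes had every 7-day library above those of 2 days and 27.7% below. For 14 over 7 days these shares were 32.2% and 31.7%, and for 14 over 2 days 16.9% and 16.5%.

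The classical heavy chains H2-K1 and H2-D1 supplied most class I heavy chain RNA at every age. H2-K1 measured 322, 360 and 310 CPM at 2 days, 431, 320 and 373 CPM at 7 days, 537, 530 and 482 CPM at 14 days, and 1015.6, 1039.3 and 1150.9 CPM at 6 weeks. The 14-day libraries all lay above the 7-day and 2-day libraries, and the 6-week libraries lay above all the rest. H2-K1 was 3.23-fold higher at 6 weeks than at 2 days (log2 difference 1.69, SE 0.13, adjusted p = 1.65e-06, edgeR's quasi-likelihood test). It was also higher at 14 days than at 7 days (log2 0.46, SE 0.13, adjusted p = 0.0124 by edgeR), but this call was lost without 7-day replicate 2 (0.36, adjusted p = 0.0555) or 7-day replicate 3 (0.42, adjusted p = 0.0537). The difference between 7 and 2 days did not pass (log2 0.18, adjusted p = 0.28 by edgeR, and 0.34 with adjusted p = 0.0426 when scaled by library totals alone).

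H2-D1 measured 1735.8, 2642 and 2009.8 CPM at 2 days, 1694.9, 1833.9 and 1643.1 CPM at 7 days, 2697.3, 1975.2 and 1972.1 CPM at 14 days, and 4447, 3514.6 and 4481.5 CPM at 6 weeks. The 2-day libraries overlapped those of 7 and of 14 days, the 14-day libraries lay above the 7-day ones, and every 6-week library lay above the rest. H2-D1 was 1.95-fold higher at 6 weeks than at 2 days (log2 0.96, SE 0.19, adjusted p = 0.00169 by edgeR) and 1.87-fold higher than at 14 days (log2 0.91, SE 0.19, adjusted p = 0.00635). Among the 3 younger ages no pair passed, with log2 differences of -0.3, 0.36 and 0.06 for 7 over 2, 14 over 7 and 14 over 2 days.

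B2m, the light chain without which most heavy chains do not reach the cell surface, was lowest on average at 2 days and highest at 6 weeks. It measured 443, 725 and 564 CPM at 2 days, 798, 735 and 806 CPM at 7 days, 882, 740 and 724 CPM at 14 days, and 1170, 1122.1 and 1241.5 CPM at 6 weeks. The 7-day libraries lay above the 2-day ones, the 7-day and 14-day libraries overlapped, and the 6-week libraries stood clear of all others. B2m was 2.04-fold higher at 6 weeks than at 2 days (log2 1.03, SE 0.17, adjusted p = 0.000421 by edgeR). The difference of 7 over 2 days (log2 0.43, SE 0.17) passed narrowly at an adjusted p of 0.0455 by edgeR and was lost in 9 of the 12 fits that left out 1 library, with values from 0.34 to 0.48; without 2-day replicate 2 it was 0.65. For 14 over 7 days it was 0.00 (SE 0.16, adjusted p = 0.985 by edgeR).

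Per kb of exon, the 9 heavy chains together averaged 1079.9 ± 237 CPM at 2 days, 919 ± 30.6 at 7 days, 1215 ± 168 at 14 days and 2319.2 ± 251 at 6 weeks (SD, n = 3 each). B2m averaged 671, 907, 910 and 1369.6 CPM per kb at the same ages. B2m divided by the heavy chain sum was 0.577, 0.626 and 0.655 at 2 days, 1, 0.906 and 1.06 at 7 days, 0.729, 0.762 and 0.76 at 14 days, and 0.56, 0.642 and 0.578 at 6 weeks. The 7-day libraries had the highest ratio, the 14-day libraries came next, and the 2-day and 6-week libraries overlapped. These sums and ratios are descriptions of chosen genes, leave out H2-Q10 and other class I genes, and carry no test.

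**Figure D2:**
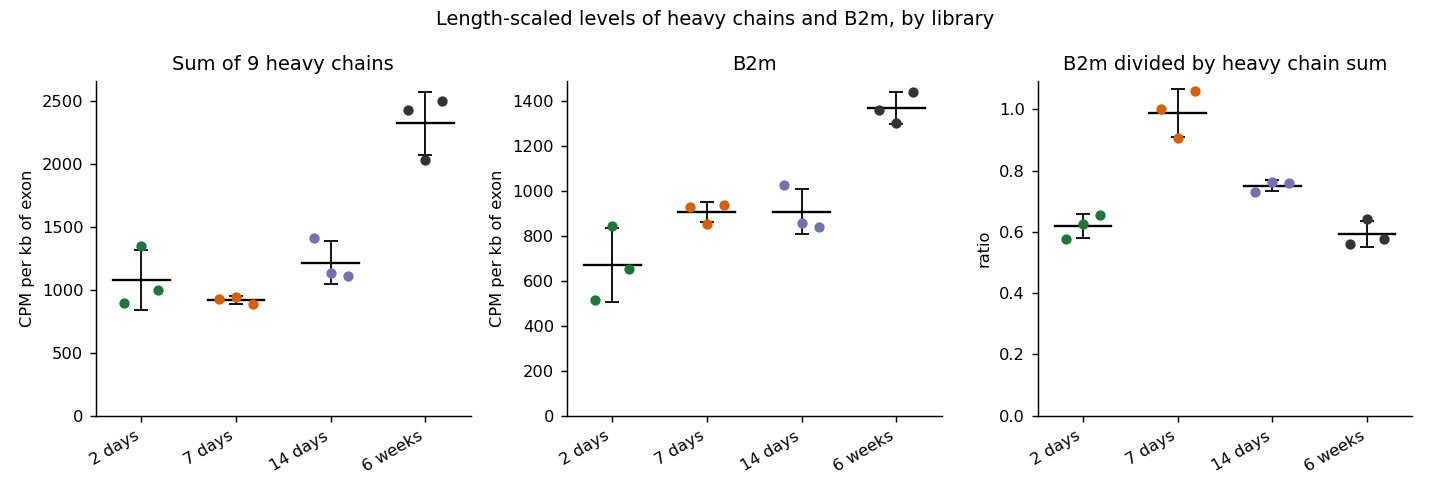
Sum of the 9 heavy chains and B2m in CPM per kb of exon, and their ratio, in each of 12 libraries by age (points libraries, lines means, bars SD, n = 3, axes from 0). The ratio lies between 0.56 and 0.642 at 6 weeks and between 0.906 and 1.06 at 7 days.

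H2-D1 made up 76.5%, 72.7%, 70.4% and 69.2% of the heavy chain sum per kb at 2 days, 7 days, 14 days and 6 weeks. H2-K1 made up 10.6%, 13.9%, 14.6% and 15.8% at those ages, and H2-T23 between 6.24% and 7.04%. The level of H2-D1 per kb was 4.43 ± 0.568 times that of H2-K1 at 6 weeks and 7.29 ± 1.1 times at 2 days (SD, n = 3 each). At 6 weeks the order of mean levels per kb was H2-D1 (1608.3), B2m (1369.6), H2-K1 (364), H2-T23 (145), H2-T24 (73.1), H2-Q4 (39.9), H2-Q6 (30.3), H2-T22 (24.3), H2-Q7 (21.8) and H2-M3 (13.1 CPM per kb). The 6-week libraries of H2-D1 overlapped those of B2m, and those of H2-T22 overlapped those of H2-Q7. H2-M3 was also the lowest at 14 days, and H2-Q7 was the lowest at 2 and 7 days. Differences between genes per kb rest on annotated exon length and were not tested.

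The Q region genes and H2-M3 had the steepest differences between the youngest and oldest mice. H2-Q6 and H2-Q7 are members of the Qa-2 family, whose proteins can be anchored to the membrane by a glycolipid. H2-Q7 measured 8.1, 2.4 and 4.9 CPM at 2 days, 23.2, 15.3 and 23.7 CPM at 7 days, 26.6, 51.3 and 38.2 CPM at 14 days, and 86.7, 102 and 89.6 CPM at 6 weeks. No 2 ages overlapped. H2-Q7 was 17.9-fold higher at 6 weeks than at 2 days (log2 4.16, SE 0.38, adjusted p = 4.54e-06 by edgeR) and 4-fold higher at 7 days than at 2 days (log2 2, SE 0.35, adjusted p = 0.000622 by edgeR).

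H2-Q6 measured 7.74, 2.5 and 6.05 CPM at 2 days, 26.4, 16.8 and 25.6 CPM at 7 days, 21.3, 31.6 and 31.4 CPM at 14 days, and 62, 67 and 60.3 CPM at 6 weeks. Libraries of 7 and 14 days overlapped, and the 2-day and 6-week libraries lay clear below and above them. H2-Q6 was 11.5-fold higher at 6 weeks than at 2 days (log2 3.53, SE 0.33, adjusted p = 6.21e-06 by edgeR), and 4.19-fold higher at 7 days than at 2 days (log2 2.07, SE 0.32, adjusted p = 0.000246). The 6-week over 14-day differences of both genes passed (log2 1.17 and 1.26, adjusted p = 0.0181 and 0.0195 by edgeR for H2-Q6 and H2-Q7). That of H2-Q6 was lost without 14-day replicate 1 (1, adjusted p = 0.0627), 6-week replicate 1 (1.18, 0.0504) or 6-week replicate 2 (1.12, 0.0521). That of H2-Q7 was lost without 14-day replicate 1 (1.05, 0.0665), 14-day replicate 3 (1.25, 0.0597), 6-week replicate 2 (1.19, 0.0581) or 6-week replicate 3 (1.29, 0.0517).

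H2-Q4 measured 30.8, 13.4 and 22.7 CPM at 2 days, 42.2, 31.4 and 41.8 CPM at 7 days, 51, 53.4 and 46.8 CPM at 14 days, and 104, 93.7 and 113 CPM at 6 weeks. The libraries of each age lay above those of the age before. H2-Q4 was 4.64-fold higher at 6 weeks than at 2 days (log2 2.22, SE 0.24, adjusted p = 1.71e-05 by edgeR) and 1.72-fold higher at 7 days than at 2 days (log2 0.78, SE 0.23, adjusted p = 0.0138). That 7-day call was lost when only those 2 ages were fitted (0.81, adjusted p = 0.0538 by edgeR).

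H2-M3 presents peptides that begin with N-formylmethionine, as bacterial and mitochondrial peptides do. It measured 5.11, 3.36 and 4.05 CPM at 2 days, 8.8, 6.85 and 8.35 CPM at 7 days, 7.32, 11.3 and 10.3 CPM at 14 days, and 19.6, 18.4 and 18.7 CPM at 6 weeks. Libraries of 7 and 14 days overlapped, the 2-day libraries were lowest and the 6-week libraries highest. H2-M3 was 4.51-fold higher at 6 weeks than at 2 days (log2 2.17, SE 0.2, adjusted p = 4.36e-06 by edgeR) and 1.91-fold higher at 7 days than at 2 days (log2 0.93, SE 0.19, adjusted p = 0.00176).

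None of the 3 T region members was called higher at 7 days than at 2 days. H2-T22 encodes a chain recognised by a subset of gamma delta T cells. It measured 40.8, 42.7 and 51.9 CPM at 2 days, 21.7, 21 and 19.7 CPM at 7 days, 52, 46.7 and 47.8 CPM at 14 days, and 80.6, 76.6 and 91.3 CPM at 6 weeks. The 7-day libraries lay below all others, and the 2-day and 14-day libraries overlapped. H2-T22 was 2.17-fold lower at 7 days than at 2 days (log2 -1.12, SE 0.12, adjusted p = 1.32e-05 by edgeR) and 2.35-fold higher at 14 days than at 7 days (log2 1.23, SE 0.12, adjusted p = 1.07e-05). At 6 weeks it was 3.98-fold higher than at 7 days (log2 1.99, SE 0.12, adjusted p = 2.9e-07 by edgeR) and 1.84-fold higher than at 2 days (log2 0.88, SE 0.11, adjusted p = 8.26e-05).

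H2-T23 encodes the heavy chain of Qa-1, which presents leader peptides of classical class I chains to CD94-NKG2 receptors of NK cells. It measured 182, 299 and 184 CPM at 2 days, 170, 174 and 158 CPM at 7 days, 249, 233 and 222 CPM at 14 days, and 446, 367 and 441 CPM at 6 weeks. The 7-day libraries all lay below the 2-day ones, but the difference did not pass (log2 -0.4, SE 0.17, adjusted p = 0.073 by edgeR) except without 2-day replicate 1 (-0.46, adjusted p = 0.038). H2-T23 was 1.89-fold higher at 6 weeks than at 2 days (log2 0.92, SE 0.18, adjusted p = 0.00135 by edgeR). It was 1.4-fold higher at 14 days than at 7 days (log2 0.49, adjusted p = 0.0376 by edgeR), a call lost in 7 of the 12 fits that left out 1 library, with values from 0.41 to 0.52.

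H2-T24, another T region gene, measured 31.4, 163 and 44.3 CPM at 2 days, 40.3, 63.4 and 45.1 CPM at 7 days, 80.7, 72.3 and 84.3 CPM at 14 days, and 165, 134 and 179 CPM at 6 weeks. One 2-day library, replicate 2, was as high as the 6-week libraries. H2-T24 was the one member not called between 6 weeks and 2 days (log2 1, SE 0.46, adjusted p = 0.0992 by edgeR), and it was called without that library (log2 2.07, adjusted p = 1.49e-05). It was also called in all 12 libraries with limma-voom (1.38, adjusted p = 0.0284), with library totals alone (1.09, 0.0415) and with no filter on low counts (1.05, 0.0466). Between 6 weeks and 7 days it passed with all 12 libraries (log2 1.69, SE 0.47, adjusted p = 0.00941 by edgeR). Without 2-day replicate 2, H2-T24 was also called for 6 weeks over 14 days (1, adjusted p = 0.00165), 14 over 7 days (0.66, 0.00836) and 14 over 2 days (1.07, 0.00196).

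Set against the other ages, 6 weeks stood highest. All 10 members were higher at 6 weeks than at 7 days, where 26.6% of all genes were higher and 24.5% were lower, and 9 of 10 were higher at 6 weeks than at 14 days, against 9.26% of all genes (lower, 9.68%). The 10 log2 differences of 6 weeks over 14 days lay between 0.59 for B2m and 1.26 for H2-Q7, with medians of 0.99 over the members and -0.00 over all genes. With library totals as the only scaling, the median over all genes was -0.16 for 6 weeks over 7 days, and all 10 members were still higher. For 6 weeks over 14 days that scaling left 7 members higher, without H2-Q6 (adjusted p = 0.0662 by edgeR) and H2-Q7 (0.0651). No member was lower in either comparison, and the count was 0 also at an unadjusted p under 0.05, by DESeq2 and by limma-voom. The count for 6 weeks over 14 days fell to 6 without 6-week replicate 2 and rose to 10 without 2-day replicate 2. The B2m call in it (log2 0.59, SE 0.17, adjusted p = 0.0266 by edgeR) was lost without 14-day replicates 2 or 3 or any one 6-week library, with values of 0.54 to 0.62.

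Between 7 and 2 days the members split. H2-Q4, H2-Q6, H2-Q7, H2-M3 and B2m were higher at 7 days (5 of 10, against 22.9% of all genes) and H2-T22 was lower (1 of 10, against 25.8%). H2-K1, H2-D1, H2-T23 and H2-T24 passed in neither direction, and the median log2 difference was 0.31 over the members and -0.01 over all genes. With library totals as the only scaling, the median over all genes was 0.139 in this comparison. Without 2-day replicate 1 there were 3 members lower at 7 days: H2-T22, H2-T23 (-0.46) and H2-T24 (-0.99, adjusted p = 0.0456). With only those 2 ages fitted, 3 members were higher.

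Between 14 and 7 days, H2-K1, H2-Q7, H2-T22 and H2-T23 were higher at 14 days, which is 4 of 10 and stood beside 24% of all genes higher and 21.9% lower. The H2-Q7 call (log2 0.9, SE 0.33, adjusted p = 0.0415 by edgeR) was lost in 9 of the 12 fits that left out 1 library, with values of 0.61 to 0.97. The count was 1 without 7-day replicate 2 or 3, 2 without 7-day replicate 1, 14-day replicate 2 or 3, or 6-week replicate 3, and 6 of 10 without 2-day replicate 2. Between 14 and 2 days, H2-K1, H2-Q4, H2-Q6, H2-Q7 and H2-M3 were higher at 14 days (5 of 10, against 12.8% of all genes) and none was lower, against 12.3%. Without 2-day replicate 2 there were 8, the additions being H2-T23 (0.36, adjusted p = 0.0197), H2-T24 and B2m (0.64, 0.00322). No member was lower at 14 days in either comparison at an unadjusted p under 0.05, by DESeq2 or by limma-voom.

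**Figure D3:**
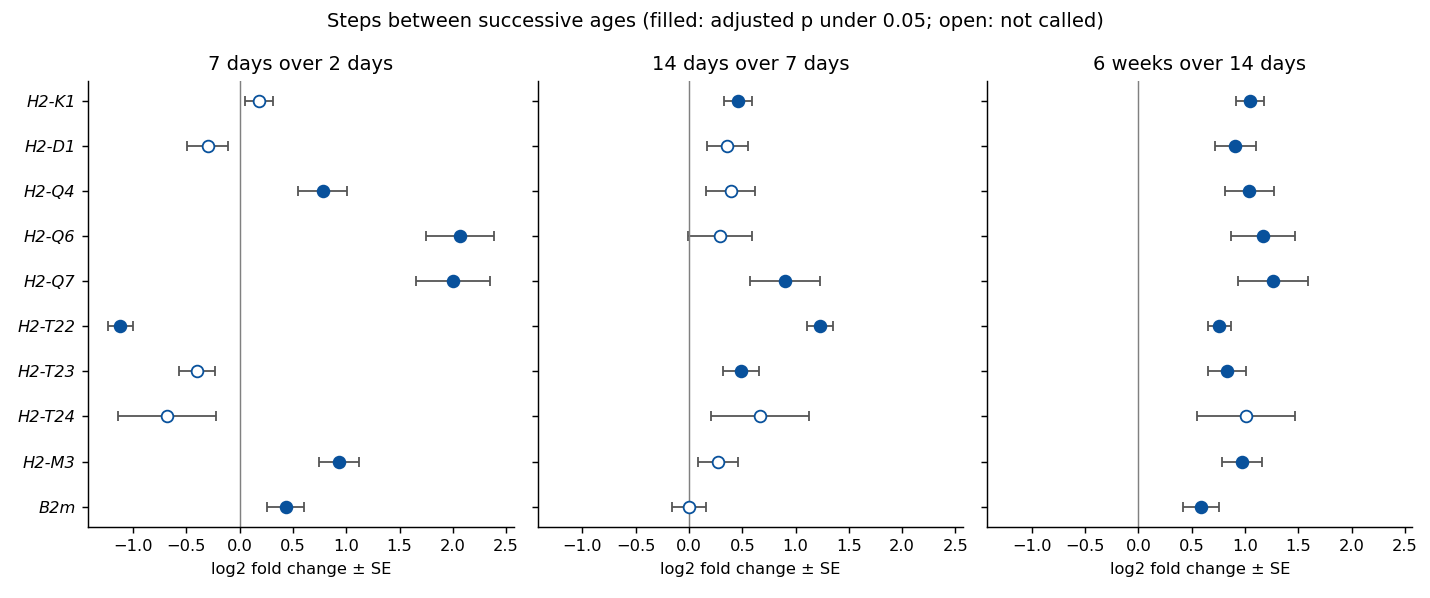
Log2 difference ± SE of each member for 7 over 2 days, 14 over 7 days and 6 weeks over 14 days; filled points passed an adjusted p of 0.05 and open points did not. In the first panel H2-T22 lies at -1.12 and H2-Q6 and H2-Q7 near 2, while in the last all 10 lie between 0.59 and 1.26.

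Across the 12 libraries some members were more alike than others. The Pearson correlations of log2 CPM among H2-Q4, H2-Q6, H2-Q7 and H2-M3 were 0.96 to 0.99. Those of H2-D1 with H2-T23 and with H2-T24 were 0.98 and 0.88, and that of H2-T23 with H2-T24 was 0.92. H2-Q6 correlated at 0.34 with both H2-T22 and H2-T24. H2-K1 lay between these sets, at 0.9 with H2-Q4 and H2-M3 and 0.88 with H2-D1, H2-T23 and B2m. B2m correlated at 0.76 to 0.81 with every other member except H2-K1 and H2-T22 (0.47). These are descriptions over 12 libraries that share 4 ages and their normalization. Of genes outside the class I set, those most like the mean standardized profile of the 10 members over the 12 libraries were Klra8 (Pearson 0.987), Herc6 (0.984), Mefv (0.984), Kcnd1 (0.982), Slc9a9 (0.98) and Klrg1 (0.98). Mefv, which encodes pyrin, averaged 17, 20.6, 43.8 and 113 CPM at 2 days, 7 days, 14 days and 6 weeks, and Klra8, an NK cell receptor gene, 0, 0.0849, 0.816 and 5.08 CPM.

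Libraries of one age also differed in both groups of members. At 2 days, replicate 2 was the lowest in H2-Q4, H2-Q6, H2-Q7 and H2-M3 and the highest in H2-D1, H2-T23, H2-T24 and B2m. It was also the highest in H2-K1 CPM, but only through its scaling factor of 0.828, since it had the fewest H2-K1 counts of that age (10946, against 12594 and 11332). The summed level of 10 MHC class II genes, which mark B cells, macrophages and dendritic cells, was 675, 368 and 517 CPM at 2 days, 1269.3, 1014.2 and 1130.5 CPM at 7 days, 2059.2, 3481.8 and 3388.8 CPM at 14 days, and 3763.8, 3032 and 3045.4 CPM at 6 weeks. In each of the 3 younger ages the library lowest in that sum was also lowest in H2-Q6 and H2-Q7, and at 6 weeks it was not.

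The summed level of 37 type I interferon-stimulated genes was 1616.9, 2924.1 and 2014.6 CPM at 2 days, 1173.1, 1418.1 and 1203.8 CPM at 7 days, 2324.3, 1797.2 and 1832.8 CPM at 14 days, and 4556.3, 4205.7 and 5072.4 CPM at 6 weeks. At each of the 4 ages the library highest in that sum was also highest in H2-D1. Other sums moved in the same libraries. At 2 days, 7 days and 14 days, the library highest in H2-D1 and lowest in H2-Q6 and H2-Q7 (replicates 2, 2 and 1) was also the highest of its age in neutrophil markers, at 63019.2, 51692.5 and 65798.5 CPM. The same 3 libraries were the lowest of their ages in B cell markers (249, 533 and 148 CPM), erythroid markers (512, 3805.5 and 116 CPM) and dendritic cell markers (9.78, 16.2 and 53.5 CPM). The pattern is thus not particular to class II or interferon-stimulated genes. Other marker lists followed it only in part. Monocyte and macrophage markers (1132 CPM) and T and NK cell markers (46.7 CPM) were highest of their age in 2-day replicate 2. Mast cell markers (106 CPM) and stromal and endothelial markers (74 CPM) were highest of their age in 7-day replicate 2. At 14 days all of these lists were lowest in replicate 1. The part of any of these lists in the class I differences was not tested.

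**Figure D4:**
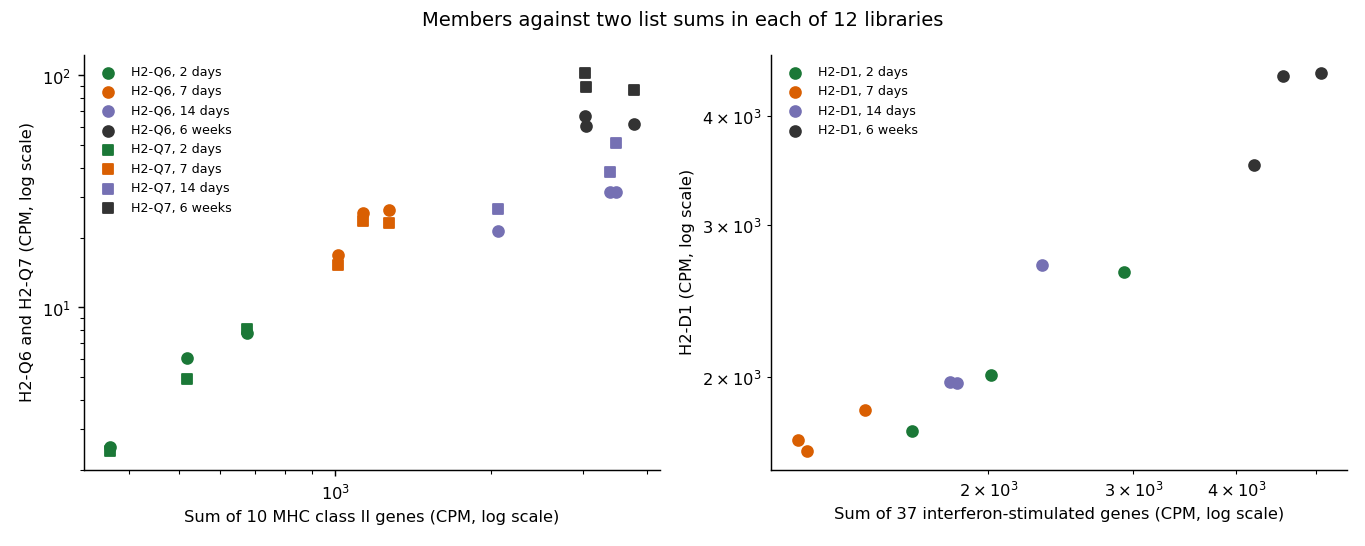
H2-Q6 and H2-Q7 against the summed MHC class II genes, and H2-D1 against the summed interferon-stimulated genes, in CPM on log axes, 1 point per library and gene, coloured by age. The 2-day library with 368 CPM of class II RNA has the lowest H2-Q6 and H2-Q7 (2.5 and 2.4 CPM), and the library with 5072.4 CPM of interferon-stimulated RNA has the highest H2-D1 (4481.5 CPM).

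Of the genes that supply peptides, some were lower and others higher at 7 days than at 2 days. All 5 immunoproteasome genes were higher at 6 weeks than at 2 days (median log2 0.51, beside 19.7% of all genes higher). Between 7 and 2 days 3 of 5 were lower, beside 25.8% of all genes, and 0 were higher, beside 22.9%. The count higher was 0 also at an unadjusted p under 0.05, by DESeq2 and by limma-voom. Psmb8, a catalytic subunit, averaged 80.5, 53, 94.4 and 151 CPM at 2 days, 7 days, 14 days and 6 weeks (7 over 2 days, log2 -0.6, SE 0.12, adjusted p = 0.00113 by edgeR). Psmb9, another catalytic subunit, averaged 57.3, 32.5, 71.4 and 110 CPM, and Psme1, of the proteasome activator, 97.3, 70, 100 and 124 CPM. Psmb10 and Psme2 were not called between 7 and 2 days.

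Of 8 peptide loading genes, 7 were higher at 6 weeks than at 2 days (median log2 0.78, beside 19.7% of all genes higher), and between 7 and 2 days 4 were higher and 3 lower (22.9% and 25.8% of all genes). Tap1, a subunit of the peptide transporter, averaged 141, 52.6, 144 and 244 CPM at 2 days, 7 days, 14 days and 6 weeks, with a log2 difference of -1.42 for 7 over 2 days (SE 0.11, adjusted p = 1.7e-06 by edgeR) and 2.22 for 6 weeks over 7 days (SE 0.11, adjusted p = 6.06e-08). Tap2 and tapasin (Tapbp) also fell at 7 days against 2 days, by 0.8 and 0.74 on the log2 scale. The fourth loading gene called higher, beside 3 general chaperones, was Tapbpl, which encodes a tapasin-like protein. Tapbpl averaged 15.1, 19.4, 20.5 and 27.1 CPM (7 over 2 days, log2 0.36, SE 0.12, adjusted p = 0.0275 by edgeR). Among the chaperones, Canx (calnexin) averaged 89.9, 234, 113 and 159 CPM (7 over 2 days, log2 1.38, SE 0.11, adjusted p = 2.25e-06 by edgeR). Calr (calreticulin) was higher at 7 days by 0.8 and Pdia3 by 0.6. Erap1, which trims peptides in the endoplasmic reticulum, averaged 28, 26.3, 27.1 and 26.7 CPM and did not pass the joint test (adjusted p = 0.873 by edgeR).

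Of 13 listed regulators of class I transcription, 3 were higher and 1 lower at 6 weeks than at 2 days, beside 19.7% and 20.7% of all genes, so the list's count is near the background. Nlrc5, the class I transactivator, averaged 11.4, 11.7, 25.2 and 37.9 CPM at 2 days, 7 days, 14 days and 6 weeks. It was 1.74 higher on the log2 scale at 6 weeks than at 2 days (SE 0.21, adjusted p = 4.59e-05 by edgeR) and 1.1 higher at 14 days than at 7 days (SE 0.21, adjusted p = 0.00111), with 0.05 for 7 over 2 days (adjusted p = 0.871). Irf1, an interferon regulatory factor, averaged 158, 120, 156 and 273 CPM at those ages (6 weeks over 2 days, log2 0.79, SE 0.23, adjusted p = 0.0167 by edgeR). The lower regulator was Rfxank, a subunit of the RFX complex, at log2 -0.43 (SE 0.1, adjusted p = 0.00481 by edgeR).

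Of 19 other class I and class I-like genes listed, 16 were in the table and 9 passed the filter. All 9 were higher at 6 weeks than at 2 days (median log2 2.19), beside 19.7% of all genes. Among them, H2-Q2 averaged 0.165 CPM at 2 days and 0.553 CPM at 6 weeks, and H2-M2 0.039 and 1.72 CPM. Genes this low passed the filter through the older ages alone, so the filter partly fixed their direction. Hfe, whose protein pairs with B2m and regulates iron uptake, averaged 9.57, 23.6, 38.1 and 67.3 CPM at 2 days, 7 days, 14 days and 6 weeks. Fcgrt, the heavy chain of the neonatal Fc receptor, averaged 25, 71, 32.1 and 77.8 CPM. H2-Q10, a gene named here after its values were seen, averaged 198, 52.3, 276 and 459 CPM and was lower at 7 days than at 2 days (log2 -1.92, SE 0.35, adjusted p = 0.000758 by edgeR).

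Most genes of both the MHC class II and the interferon-stimulated lists were higher at 6 weeks than at 2 days (10 of 10 and 29 of 37) and at 14 days than at 7 days (9 of 10 and 24 of 37). The shares of all genes higher in these comparisons were 19.7% and 24%. The class II genes had a median log2 difference of 2.45 for 6 weeks over 2 days. None of them was called between 6 weeks and 14 days (0 higher and 0 lower by edgeR, at an unadjusted p under 0.05, by DESeq2 and by limma-voom). In that comparison 9.26% of all genes were higher and 9.68% lower, and 9 of 10 class I members were higher. H2-Eb1, a class II beta chain, averaged 423 CPM at 6 weeks and 420 CPM at 14 days, with 92.6 CPM at 7 days and 44 CPM at 2 days. H2-Ab1, another class II beta chain, averaged 581 CPM at 6 weeks and 532 CPM at 14 days, with 125 CPM at 7 days and 65.4 CPM at 2 days. Of 37 interferon-stimulated genes, 32 were higher at 6 weeks than at 14 days, against 9.26% of all genes. Between 7 and 2 days 2 were higher and 22 lower (median log2 -0.83), against 22.9% and 25.8% of all genes. Zbp1, a nucleic acid sensor, averaged 12, 4.37, 17 and 43.9 CPM at 2 days, 7 days, 14 days and 6 weeks, and Irf7, a regulator of interferon genes, 125, 38, 107 and 266 CPM. Both were lower at 7 days than at 2 days (log2 -1.45 and -1.71, adjusted p = 1.77e-05 and 6.96e-06 by edgeR), as was H2-T22 among the class I members. The lists were not tested against each other.

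**Figure D5:**
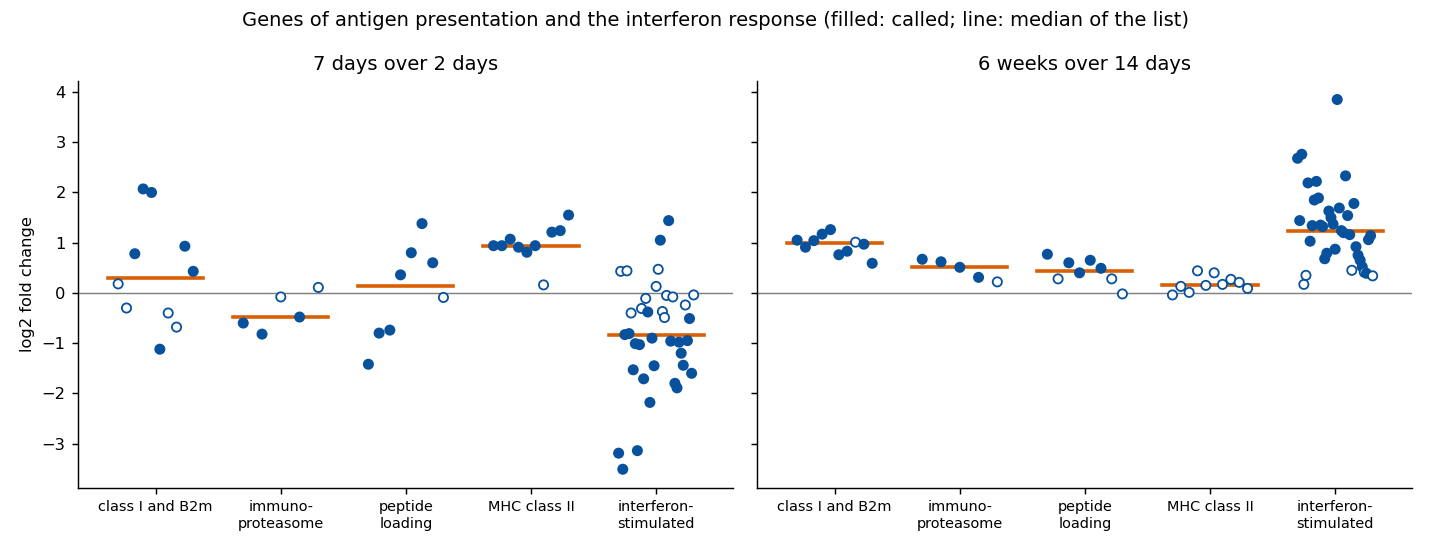
Log2 difference of each tested gene of 5 lists for 7 over 2 days and 6 weeks over 14 days; filled points passed an adjusted p of 0.05, open points did not, and lines mark list medians. Interferon-stimulated genes have medians of -0.83 and 1.24 and class II genes of 0.94 and 0.16, while class I genes and B2m have 0.31 and 0.99.

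Markers of other cells were present in all libraries and moved with age. The 13 monocyte and macrophage markers summed to 805 to 1132 CPM at 2 days, 1746.7 to 1824.8 CPM at 7 days, 1193 to 1388.3 CPM at 14 days and 3481.2 to 3767 CPM at 6 weeks. Of these, 10 of 13 were higher at 6 weeks than at 2 days, beside 19.7% of all genes. The 7 B cell markers summed to 249 to 330 CPM at 2 days, 533 to 601 CPM at 7 days, 148 to 402 CPM at 14 days and 403 to 520 CPM at 6 weeks, and the 6 dendritic cell markers to 9.78 to 18.1, 16.2 to 21.1, 53.5 to 89.6 and 34.1 to 60.7 CPM. Of 10 T and NK cell markers, 8 were higher and 1 lower at 6 weeks than at 2 days, beside 19.7% and 20.7% of all genes. Mast cell markers summed to 19.1 to 34 CPM at 6 weeks and 2629.3 to 5042.8 CPM at 2 days, and erythroid markers to 207 to 661 CPM at 6 weeks and 3805.5 to 6454.3 CPM at 7 days. Of the 8 neutrophil markers, 2 were higher and 3 lower at 7 days than at 2 days. Beside 22.9% and 25.8% of all genes, these counts are near the background. The granule gene Camp averaged 4790.5 CPM at 7 days, against 2262.6 CPM at 2 days (log2 1.08, SE 0.16, adjusted p = 0.000154 by edgeR), and the cytokine receptor gene Csf3r averaged 697 CPM at 7 days, against 2053.2 CPM at 2 days (log2 -1.56, SE 0.36, adjusted p = 0.00336). The only marker of these lists at 0 counts throughout an age was the mast cell gene Tpsab1, at 14 days and 6 weeks. The part of these cells in the class I differences was not tested.

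Close copies limit the values of single genes. Of the 50-base words of each gene's annotated transcripts, the share also found in another gene was 34.5% for H2-T22 (31.2% in H2-T10), 32% for H2-Q6, 26.4% for H2-Q7, 21.8% for H2-Q4, 13.6% for H2-T23, 12.8% for H2-D1, 9.63% for H2-K1, 3.17% for H2-T24, 0.576% for H2-M3 and 0% for B2m. How the deposited counts divided such reads is not stated, so single values of the Q region genes and H2-T22 are uncertain. With H2-Q6 and H2-Q7 summed, the log2 difference of 6 weeks over 2 days was 3.88 (adjusted p = 5.68e-06 by edgeR). That of 14 over 7 days was 0.61 (adjusted p = 0.136 by edgeR). However, H2-Q7 shared more words with H2-Q10 (14%) than with H2-Q6 (6.31%), and H2-Q10 was not in the sum. H2-Q10 held 106054 counts over all libraries, against 17503 for H2-Q7. The effect of reads shared with H2-Q10 was not tested. With H2-T22 and H2-T10 summed, 7 over 2 days gave -0.94 (adjusted p = 3.86e-05 by edgeR). H2-T22 supplied most of that sum. H2-T10 alone went the other way, from 1.91 CPM at 2 days to 3.8 CPM at 7 days (log2 0.98, adjusted p = 0.0294 by edgeR). Antisense genes overlap H2-Q4 (Gm11131, with 1057 counts over all libraries) and H2-T22, H2-T23 and H2-T24 (A930015D03Rik, 29 counts), and without strand their reads cannot be told apart. Class I genes vary between mouse strains, and the effect of a strain unlike the annotated genome was not tested.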

How the data were processed

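The authors deposited whole-number counts per gene for 12 libraries of Ly6G+ spleen cells, 3 at each of 4 ages. RSEM 1.2.3, DESeq2 and mm10 are named in the submitters' processing notes, with no role given. Trizol extraction and random hexamer priming are per the labels' protocols. Strand is not stated. Of 38887 identifiers, 37570 matched GENCODE M21; the other 1317 stayed in library totals (34495767 to 38795913 counts per library).

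The main test was edgeR 4.0.16 (R 4.3.3): trimmed mean of M-values factors, filterByExpr with a minimum count of 10, and the quasi-likelihood test in 1 model with age as the only term over 12 libraries, with Benjamini-Hochberg adjustment over 15494 genes and a threshold of 0.05. SE is the absolute log2 difference divided by the square root of F. The script was tested on simulated counts. Alternatives were DESeq2 1.42.0, its size factors, library totals, no filter, limma-voom (limma 3.58.1), only the 2 ages compared, the replicate number as a block, summed paralogs and each library left out. All 10 members are named; other genes were named from the peptide supply and regulator lists, among the 2 smallest joint p of each other list, or by likeness to the members. Genes used to check libraries, the filter, paralogs and overlaps fall outside that rule. Genes near 0 at some ages, such as H2-Q2, H2-M2 and Ifi44, passed the filter through other ages alone. Members and lists were chosen with earlier results of these data known. Promoters are from RefSeq (GRCm38.p6).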

Additional observations from a re-analysis of the deposited data

How the results depend on the processing

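Of 1158 member results recomputed under alternatives, 1067 kept their direction and side of the threshold, 49 lost a call, 17 gained one and 25 changed sign. For 7 over 2 days, 3 members were higher with only those ages fitted, against 5. Replicate numbers did not pair the libraries (correlations of deviations between same-numbered libraries from -0.253 to 0.202); with the replicate number as a block, 2 members were higher for 14 over 7 days, against 4. Near-zero differences changed sign. B2m for 14 over 7 days was -0.01 with DESeq2 size factors, -0.10 with library totals, and -0.02 with no filter, with DESeq2 and with 2 ages only. H2-T24 for 14 over 2 days was 0.16 with library totals, 0.04 with no filter, 0.37 with limma-voom and 0.23 with the block. The cause was not tested.

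With 1 library left out, counts of members higher ran from 6 to 10 for 6 weeks over 14 days, 4 to 5 for 7 over 2 days, 1 to 6 for 14 over 7 days and 5 to 8 for 14 over 2 days, and members lower from 1 to 3 for 7 over 2 days. Members that differed with age ran from 9 to 10. Log2 differences that changed sign ran from -0.99 to 0.41 (H2-T24, 7 over 2 days), -0.09 to 0.06 (B2m, 14 over 7 days), and for 14 over 2 days from -0.11 to 0.25 (H2-D1), -0.01 to 0.36 (H2-T23) and -0.35 to 1.07 (H2-T24). For H2-T24 and the 14 over 2 days count, the widest value came without 2-day replicate 2. The smallest member counts were 73 (H2-Q7) and 76 (H2-Q6), both in 2-day replicate 2, where counting error is widest.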
